A study of Mus musculus with 6 samples.

Results

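The peaks of SMAD1/5 were examined around 3 genes of the de novo DNA methyltransferase family, Dnmt3a, Dnmt3b and Dnmt3l. No window was set for any other member of the family. The cells were of 2 mouse stem cell states, embryonic stem cells (ESCs, naive) and the primed epiblast stem cells made from such ESCs (ESD-EpiSCs). A peak belonged to a gene when it overlapped a fixed mm9 window around that gene. The windows were chr12:3750000-3960000 for Dnmt3a (210 kb), chr2:153400000-153590000 for Dnmt3b (190 kb) and chr10:77410000-77610000 for Dnmt3l (200 kb). Of 24441 peaks in the 4 lists, 14 lay in these windows. All 14 came from ESCs, 7 from each medium.

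Peaks were mapped by ChIP-seq with an antibody labelled anti-Smad1, in libraries titled Smad1/5, from the E14 ESC line and its ESD-EpiSC derivatives. The 4 immunoprecipitated groups were ESD-EpiSCs given 10 ng/ml BMP-4 for 24 h, ESD-EpiSCs given it for 1.5 h, ESCs kept in LIF with 10 ng/ml BMP-4 in basal medium, and ESCs kept in LIF with fetal bovine serum. The ESD-EpiSCs were grown in N2B27 medium with FGF2 and Activin A, per the labels' protocols. Each group was 1 library without a replicate. No difference between groups has a replicate check, no test was possible, and cell state cannot be told apart from culture or library. The ESD-EpiSC lists held 133 peaks at 24 h and 225 at 1.5 h. The LIF+BMP-4 list held 14696 peaks and the LIF+serum list 9387. The read depth behind them is unknown, so a missing peak is a missing call and not shown to be missing binding.

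Dnmt3a and Dnmt3b encode enzymes that place methyl groups on unmethylated cytosines. Dnmt3l encodes a relative without catalytic activity that binds and stimulates both of these enzymes. In early mouse development these genes act when the epiblast gains DNA methylation as it passes out of the naive state, and Dnmt3b is widely used as a marker of primed pluripotency. BMP receptors act on genes through the transcription factors SMAD1 and SMAD5, which bind GC-rich elements such as GGCGCC and SMAD boxes such as GTCTG.

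The promoters of the 3 genes differed in GC content and, along with it, in the count of the GC-rich SMAD element. They are shown because they set the sequence context of the 3 loci, not because a peak was placed on them. The sequences are RefSeq's for GRCm38.p6, 250 bases before to 50 after a gene start, on the plus strand of chromosomes 12 (Dnmt3a), 2 (Dnmt3b) and 10 (Dnmt3l). Each gene's most upstream listed start is given, and capitals mark GGCGCC.
Dnmt3b: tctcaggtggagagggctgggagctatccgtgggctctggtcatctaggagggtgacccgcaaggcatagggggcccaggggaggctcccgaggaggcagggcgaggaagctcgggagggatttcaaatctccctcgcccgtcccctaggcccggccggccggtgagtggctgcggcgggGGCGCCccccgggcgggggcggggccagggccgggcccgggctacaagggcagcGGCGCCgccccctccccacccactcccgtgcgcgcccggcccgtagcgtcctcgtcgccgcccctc
Dnmt3a: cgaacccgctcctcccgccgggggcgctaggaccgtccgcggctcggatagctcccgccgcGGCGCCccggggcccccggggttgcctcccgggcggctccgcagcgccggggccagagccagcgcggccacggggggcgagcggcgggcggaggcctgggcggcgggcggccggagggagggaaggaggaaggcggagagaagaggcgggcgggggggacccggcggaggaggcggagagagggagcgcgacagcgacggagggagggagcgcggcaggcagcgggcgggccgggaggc
Dnmt3l: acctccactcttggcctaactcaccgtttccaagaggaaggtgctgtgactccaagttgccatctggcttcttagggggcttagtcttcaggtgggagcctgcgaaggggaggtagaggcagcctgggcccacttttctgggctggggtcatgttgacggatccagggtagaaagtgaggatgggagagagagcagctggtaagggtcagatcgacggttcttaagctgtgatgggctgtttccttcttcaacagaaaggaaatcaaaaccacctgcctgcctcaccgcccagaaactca

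GGCGCC, a palindrome and so the same on both strands, occurred 2 times in the Dnmt3b promoter and 1 time in each of the 3 Dnmt3a entries. The first and second Dnmt3a entries overlap in sequence, so the 3 are not separate promoters. GGCGCC occurred 0 times in each of the 3 Dnmt3l entries. Of 32851 promoter entries, 11.9% held it, so a count of 0 was the usual case. The Dnmt3b and Dnmt3a entries had a GC content of 74.0% to 82.3%, and the Dnmt3l entries 54.7% to 62.7%, against a median of 52.7% over all entries. Among the 1567 entries of at least 74.0% GC the element was found in 51.3%. GTCTG, or CAGAC on the other strand, was found in 1 Dnmt3a entry and 1 Dnmt3l entry, and in 49.6% of all entries. The ends of the 2 motifs can overlap each other, which occurred in 0 of these entries. The peak positions are mm9, and no mm9 annotation was used here, so the gene part or promoter that a peak lies in is not given. In the RefSeq order of protein-coding genes, Dnmt3b lies between Commd7 and Mapre1, Dnmt3a between Dtnb and Pomc, and Dnmt3l between Aire and Icosl. In GRCm38.p6 the genes were 112885 bp (Dnmt3a), 38320 bp (Dnmt3b) and 21336 bp (Dnmt3l) long. Most of the Dnmt3b and Dnmt3l windows thus lay outside the gene. Each of the windows may hold sequence of neighbouring genes as well. A peak at a gene therefore means only a peak in its window.

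In ESD-EpiSCs no SMAD1/5 peak was called in any of the 3 windows. The counts were 0 at 24 h and 0 at 1.5 h for each gene, whereas the ESC lists had 7 calls each over the 3 windows. The ESD-EpiSC lists were so short that an empty window was the usual case. A list of 133 peaks gives 0.00985 peaks per 190 kb at even density and a list of 225 gives 0.0167. Over the chromosomes, 2.07% of intervals of 190 kb held an ESD-EpiSC peak of either time. Among the 312 intervals with at least as many peaks as the Dnmt3b window in both ESC lists (2.31% of 13494), 6.73% did. Of 5503 merged regions with a peak in both ESC lists, 0.999% also held an ESD-EpiSC peak. The nearest ESD-EpiSC call to the Dnmt3b window lay 0.83 Mb before it at both times, at chr2:152565189-152565277 at 24 h (rank 44 of 133) and at chr2:152565128-152565351 at 1.5 h (rank 20 of 225). For Dnmt3l the nearest calls were 43.95 Mb away at 24 h and 1.59 Mb away at 1.5 h, and for Dnmt3a 42.17 Mb and 21.82 Mb. With lists of this length, these zeros do not show that the 3 loci differed between the cell states.

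**Figure D1:**
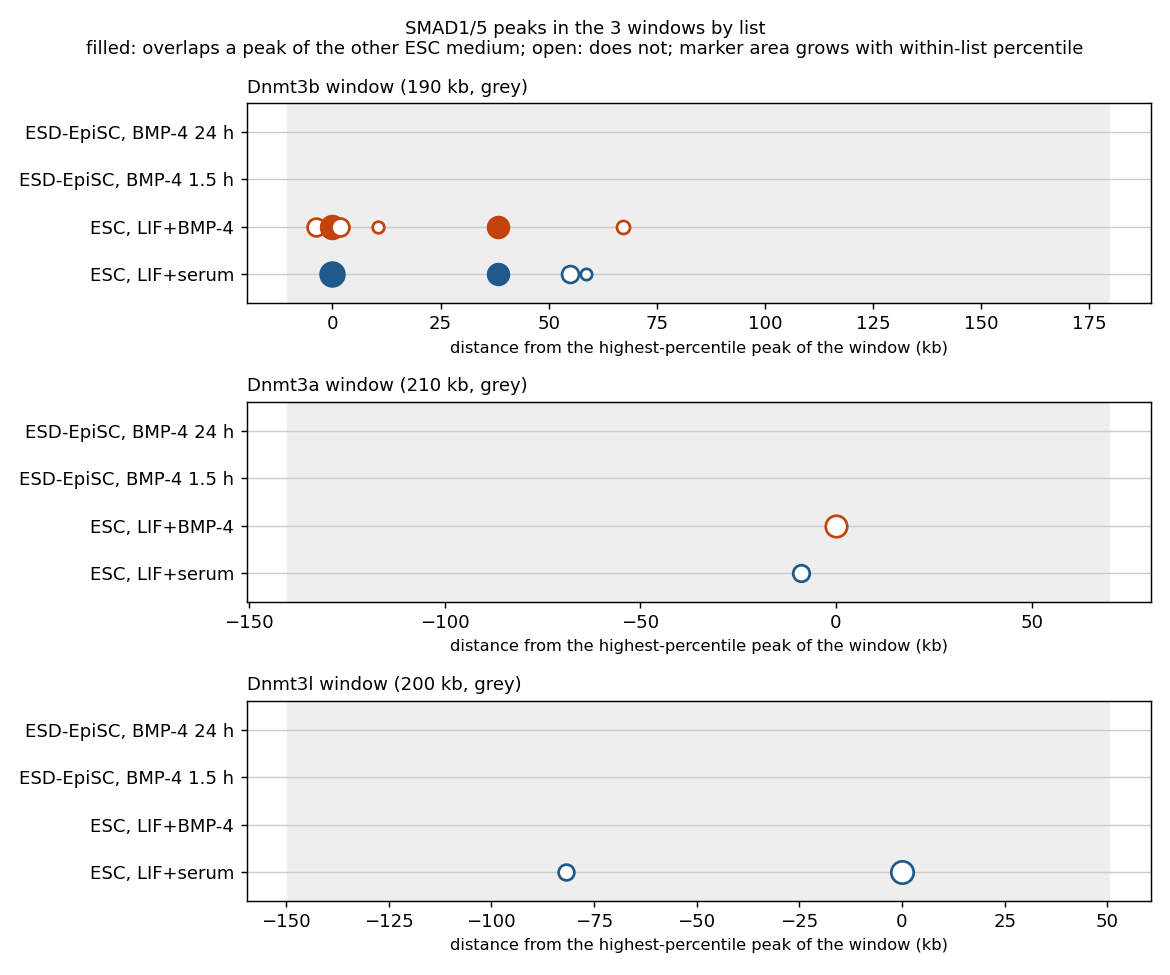
Position of each peak in the Dnmt3b, Dnmt3a and Dnmt3l windows (grey), as distance in kb from the midpoint of the window's highest-percentile peak, with 1 row per list. Filled points overlap a peak of the other ESC medium, open points do not, and the marker area grows with the within-list percentile. The 2 ESD-EpiSC rows are empty in every window, and the only filled points are the 2 pairs in the Dnmt3b window, 38.3 kb apart.

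The Dnmt3b window was the most densely occupied of the 3 in ESCs, in both media. It held 6 LIF+BMP-4 peaks and 4 LIF+serum peaks, which form 8 merged regions. This amounted to 31.6 peaks per Mb in LIF+BMP-4, against 6.09 over chromosome 2 and 5.73 over the whole list. In LIF+serum it was 21.1 peaks per Mb, against 3.83 and 3.66. When the chromosomes were divided into 13494 intervals of the same 190 kb, 3.68% held 6 or more LIF+BMP-4 peaks and 4.77% held 4 or more LIF+serum peaks. These shares correspond to 496 and 643 intervals. The lead of the Dnmt3b window rested largely on lower-scoring calls. At a score of at least 100, LIF+serum had 1 peak in the Dnmt3b window and 1 in the Dnmt3l window. LIF+BMP-4 then had 2 peaks in the Dnmt3b window and 1 in the Dnmt3a window.

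**Figure D2:**
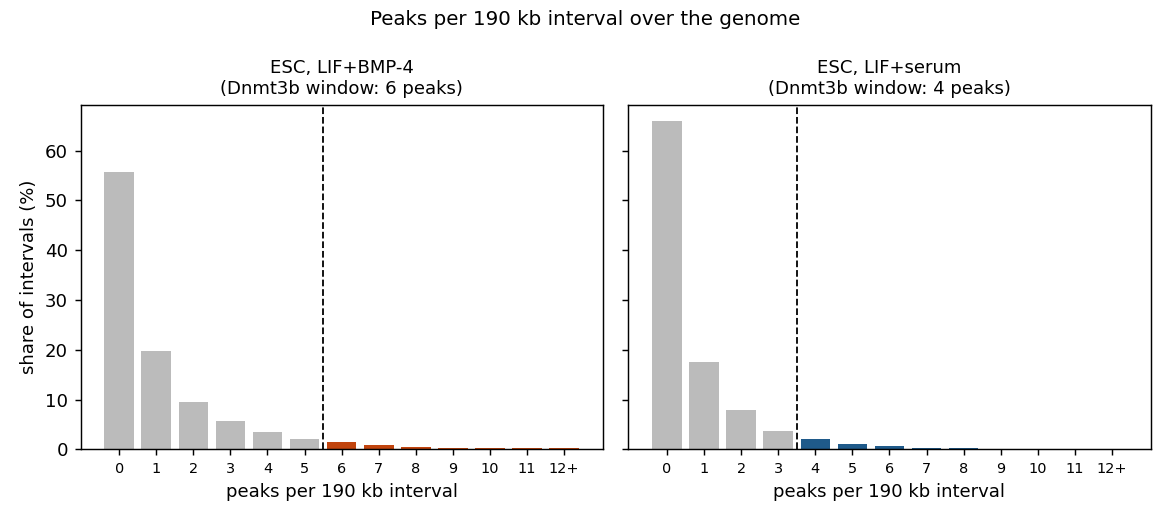
Share of 190 kb intervals (y axis, %) by the number of peaks they hold (x axis), for LIF+BMP-4 on the left and LIF+serum on the right. Coloured bars to the right of the dashed line are intervals with at least as many peaks as the Dnmt3b window, 3.68% for LIF+BMP-4 (6 peaks) and 4.77% for LIF+serum (4 peaks).

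In the Dnmt3b window, 2 regions were called in both media. They held 2 of the 6 LIF+BMP-4 peaks, where 38.7% of the whole list met a LIF+serum peak, and 2 of the 4 LIF+serum peaks, where 58.8% of the whole list met a LIF+BMP-4 peak. Scores are the authors' own values per peak, of unstated scale, so peaks are described by rank and by percentile within their own list. The first shared region, at chr2:153409968-153410712, spanned 648 bp in LIF+BMP-4 (score 147.5, rank 1899, percentile 87.1) and 745 bp in LIF+serum (score 201.48, rank 396, percentile 95.8). The peak midpoints were 32.5 bp apart. In each list this was the highest-scoring of the 7 calls in the 3 windows. The second shared region, at chr2:153448148-153449013, was 572 bp wide in LIF+BMP-4 (score 100.72, rank 4303, percentile 70.7) and 866 bp wide in LIF+serum (score 89.7, rank 2818, percentile 70.0). Its midpoints were 12.0 bp apart. In both regions the narrower LIF+BMP-4 peak lay wholly within the LIF+serum peak. LIF+BMP-4 peaks were also narrower over the whole lists, with median widths of 500 bp against 811 bp. Midpoint distances and nesting were not computed for other overlapping peaks, so neither is shown to be particular to these regions.

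Only these 2 shared calls of the Dnmt3b window stood above the median of their lists. The 4 peaks called in LIF+BMP-4 alone had percentiles of 13.4 to 48.8, and the 2 called in LIF+serum alone had 12.0 and 42.3. That the higher-scoring peaks were the ones also called in the other medium holds over the lists as a whole, so the same pattern here is not particular to Dnmt3b. Of LIF+BMP-4 peaks scoring at least as high as the lower shared Dnmt3b peak, 68.9% overlapped a LIF+serum peak, against 26.2% of those below it. For LIF+serum the shares were 82.8% and 48.5%.

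The Dnmt3b window also held 4 peaks found in LIF+BMP-4 only and 2 found in LIF+serum only. Of the 4, 3 lay before the second shared region, at chr2:153406390-153406902 (513 bp, score 74.6, rank 7620), chr2:153411671-153412629 (959 bp, score 75.32, rank 7518) and chr2:153420725-153421074 (350 bp, score 54.55, rank 12719). The first and second of them, with the shared peak between, fell within 6.2 kb, and they were 3.1 kb and 1.0 kb from the LIF+serum peak. The last LIF+BMP-4 peak was at chr2:153477282-153477763 (482 bp, score 57.31, rank 11710), 7.9 kb from the nearest LIF+serum peak. The peaks called in LIF+serum alone were a neighbouring pair 2.9 kb apart, at chr2:153464917-153465767 (851 bp, score 65.75, rank 5419) and chr2:153468671-153469410 (740 bp, score 53.42, rank 8263). These calls lay between the second shared region and the last LIF+BMP-4 peak. All 10 calls of the Dnmt3b window fell within 71.4 kb, and the last 112.2 kb of the window held none in any list.

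Dnmt3a carried 1 peak in each medium, and the 2 peaks did not overlap. The LIF+BMP-4 peak was at chr12:3889755-3890353 (599 bp, score 110.41, rank 3536, percentile 75.9). The LIF+serum peak was at chr12:3880807-3881492 (686 bp, score 64.69, rank 5621, percentile 40.1), with 8.3 kb between them. The next peak of the same list was 198.5 kb away in LIF+BMP-4 and 217.4 kb away in LIF+serum. The whole lists held 5.73 and 3.66 peaks per Mb, and such distances were not computed over them. A count of 1 or more was ordinary for 210 kb, being found in 46.9% of intervals for LIF+BMP-4 peaks and 36.4% for LIF+serum peaks. Of 858 intervals with exactly 1 peak in each ESC list, 32.4% had no overlapping pair, and of 3871 intervals with any peak in both, 16.9%. Of LIF+BMP-4 peaks scoring at least as high as the Dnmt3a peak, 27.1% met no LIF+serum peak.

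Dnmt3l was the one family member with calls in LIF+serum and none in LIF+BMP-4. The LIF+BMP-4 count was 0, as in 54.5% of intervals of 200 kb, and the LIF+serum count was 2, a number reached by 17.7% of intervals. Of the 2265 intervals with 2 or more LIF+serum peaks, 4.06% (92) held no LIF+BMP-4 peak, although the LIF+BMP-4 list was the longer one. Only 1102 of these intervals held exactly 2 LIF+serum peaks, as the Dnmt3l window did. The share among those was not computed, so 4.06% is not a like-for-like rate for this window. The higher LIF+serum peak was at chr10:77559121-77559976 (856 bp, score 115.42, rank 1556, percentile 83.4). Among the 1557 LIF+serum peaks that scored as high or higher, 9.83% had no counterpart in LIF+BMP-4. The other peak was at chr10:77477450-77477823 (374 bp, score 62.21, rank 6100, percentile 35.0). The nearest LIF+BMP-4 peak on chromosome 10 was 162.4 kb from the first and 244.5 kb from the second, at chr10:77722342-77722873, and ranked 12234 of 14696. With 1 library per medium, this difference between the media has no replicate check and was not tested.

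**Figure D3:**
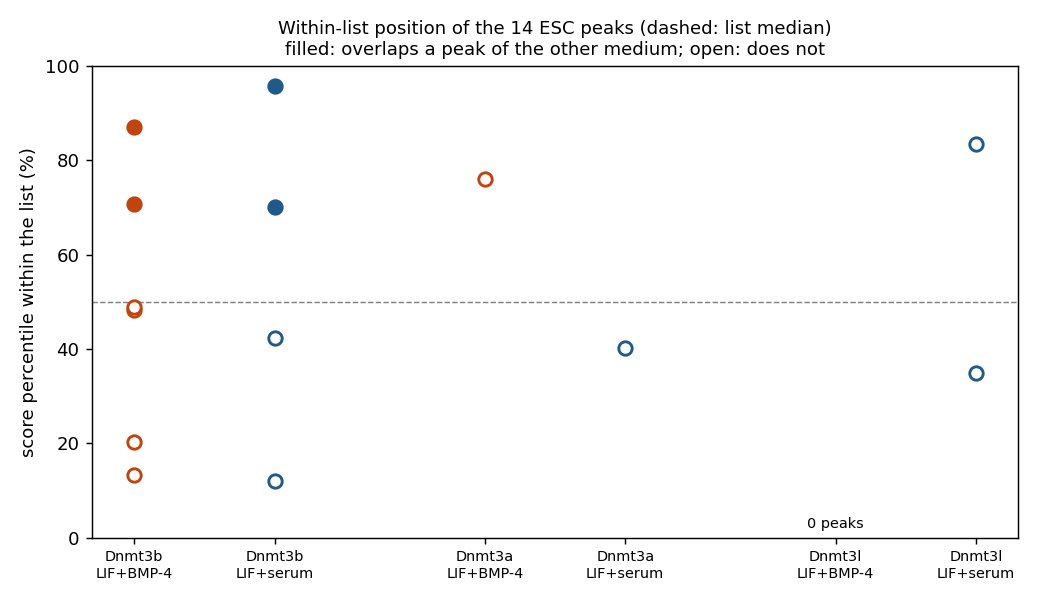
Score percentile of each of the 14 ESC peaks within its own list (y axis, %), by gene and medium (x axis); the dashed line is the list median. Filled points overlap a peak of the other medium. The 4 filled points, all at Dnmt3b, lie between 70.0 and 95.8, the highest unshared peak is the Dnmt3l LIF+serum peak at 83.4, and Dnmt3l has 0 peaks in LIF+BMP-4.

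Over the 3 windows together, the median peak lay near the middle of its list in score and width, while single peaks were spread widely in score. The 7 LIF+BMP-4 members had a median percentile of 48.8, with a range of 13.4 to 87.1. The 7 LIF+serum members had a median of 42.3, with a range of 12.0 to 95.8. In each list 3 of the 7 were above the list median. Their median width was 572 bp in LIF+BMP-4 and 745 bp in LIF+serum, against list medians of 500 bp and 811 bp. Of the LIF+BMP-4 members, 2 of 7 overlapped a LIF+serum peak, against 38.7% of that list, and of the LIF+serum members 2 of 7 overlapped a LIF+BMP-4 peak, against 58.8% of that list. With 7 peaks per list, these counts do not set the 3 windows apart from the lists. The 12 merged regions comprised 2 in both media, 5 in LIF+BMP-4 alone and 5 in LIF+serum alone.

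Within 50 kb outside the windows there was no ESD-EpiSC and no LIF+BMP-4 peak. There were 3 LIF+serum peaks, against 7 inside the windows. One of them, at chr2:153593238-153593774, began 3.2 kb after the end of the Dnmt3b window, had a score of 140.27 and ranked 993, above all Dnmt3b calls of that list but the first. The others were at chr2:153372197-153372705, 27.3 kb before the Dnmt3b window (rank 8632), and at chr10:77401983-77402636, 7.4 kb before the Dnmt3l window (rank 9311).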

How the data were processed

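SMAD1/5 ChIP-seq peak lists of 4 immunoprecipitated libraries were used, and the 2 input libraries were not analysed here. Bowtie 1.1.0, MACS 1.4.2, Picard and the mm9 build are listed in the submitters' processing notes, without roles. The authors deposited 1 list per library with 5 columns, the last a score per peak of unstated scale; it served only to rank peaks within a list. The sources used here do not give the control, the read filters or the depth, so no precision can be stated for a single call.

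Groups follow the library titles. Every peak that overlapped a window by 1 bp or more was counted and every such peak is reported, a rule that left none to choose. Starts were raised by 1 so that positions are 1-based. Regions are merged overlapping peaks. For the background, each chromosome except Y was divided, from its first to its last peak over the 4 lists (2570 Mb in all, chromosome Y included in that total), into adjoining intervals of the window's length. Densities use the same span. The design allowed no test, since each group is 1 library. Gene neighbours and promoters come from RefSeq tables of GRCm38.p6, whose positions were not set against mm9 peaks; for that reason distances to gene starts and counts around Dnmt1, Uhrf1, Tet1, Tet2 and Tet3 were not run. The windows, members and motifs were chosen with earlier results of these data known. Overlap counts and window counts were checked on simulated data. Python 3.11.15, numpy 2.4.6, pandas 2.3.3 and matplotlib 3.10.9 were used. The alternatives are given in the closing section.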

Additional observations from a re-analysis of the deposited data

How the results depend on the processing

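No paired analysis was possible because each group has 1 library. A score of at least 100 moved 5 counts by more than 1.5 times. It left 2 LIF+BMP-4 peaks and 1 LIF+serum peak at Dnmt3b, with 1 region called in both media. There remained 0 LIF+serum peaks at Dnmt3a and 1 at Dnmt3l. The cause lies in the setting, which removes lower peaks. Of the settings tried for peak counts, the extension of the windows by 50 kb was the one that could add calls where there were 0, and with it the ESD-EpiSC counts in every window and the LIF+BMP-4 count at Dnmt3l were still 0. That extension gave 6 LIF+serum peaks at Dnmt3b and 3 at Dnmt3l. With the LIF+BMP-4 list reduced to as many peaks as LIF+serum, Dnmt3b held 4 LIF+BMP-4 peaks, the same number as in LIF+serum. Use of peak midpoints and removal of peaks over 5 kb changed no peak count by more than 1.5 times. Overlap of 50% of the shorter peak and peak extension by 1 kb were tried only for shared regions, which stayed at 2 for Dnmt3b. Peaks called in 1 medium alone were not recounted under these 2 settings. The LIF+BMP-4 peak at chr2:153411671-153412629 lay 958 bp from the LIF+serum peak of the first shared region, within reach of that extension. The best rank of each window was the same with the longer windows and with lists of equal length, which could not alter it, and percentiles restate the ranks on another scale. Depth is unknown, so an absent call sets no upper limit on binding.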
